A study of Solanum lycopersicum with 86 samples.

Results

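The genes described here carry the nuclear auxin signal in the elongating tomato stem: the auxin response factors (ARFs), 2 TIR1/AFB auxin receptors and 10 Aux/IAA genes, namely IAA8, IAA9, IAA11, IAA12, IAA13, IAA17, IAA22, IAA26, IAA27 and IAA36. They were taken by class from a list of 33 gene identifiers. The rule used no measured value, but the list was drawn up with earlier results of these data known. The table of read counts held 32 of the 33 among its 23050 genes: 10 Aux/IAA genes, 2 receptors and 20 of 21 ARFs. The ARF Solyc10g086130 was not analysed here. The table gives identifiers without gene symbols, so single genes are called by identifier and class.

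Tomato seedlings (Solanum lycopersicum) of the cultivars Moneymaker and M82 were kept in white light for 7 days, then moved to far-red-enriched light or left in white light. The far-red plants (FR) had 200 PAR of white light with added far-red to a red to far-red ratio of 0.21, and the white-light plants (WL) had 200 PAR of white light without it. All plants shared 20 °C, 70% humidity and a cycle of 16 h light and 8 h dark. First internodes were taken 6, 24, 30 and 48 h after the treatment began, and pith, the innermost tissue of the internode, at 30 and 48 h. This gave 86 libraries in 24 groups of 2 to 6: 19 FR and 13 WL libraries of Moneymaker internodes, 8 FR and 6 WL of Moneymaker pith, 11 FR and 15 WL of M82 internodes, and 5 FR and 9 WL of M82 pith. Per the series design a replicate number marks plants of 1 batch, and the sources used here do not say whether a library holds 1 plant or several.

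Auxin is perceived in the nucleus by TIR1/AFB proteins, F-box subunits of an ubiquitin ligase that bind the hormone together with an Aux/IAA protein. Aux/IAA proteins are short-lived repressors that sit on ARFs, and auxin leads to their breakdown, which frees the ARFs to act on their target genes. ARFs bind DNA, and some activate while others repress transcription. Many Aux/IAA genes are themselves induced by auxin, so that the pathway makes its own brake. In plants that sense shade through phytochrome, auxin made in the leaves is a known driver of stem elongation.

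Values are scaled reads, the authors' read counts after division by 1 factor per library. Recovered reads per library, in units of 1e6, ran from 0.769 to 22.1 with a median of 2.98, and the medians of the sets of cultivar, tissue and light lay between 2.40 and 3.74. A check of cultivar and time-of-day genes put 12 libraries nearer another label than their own: 7 labelled M82 and 3 labelled Moneymaker were nearer the other cultivar, and 1 of each cultivar was nearer the other time of day. Most were WL: among those nearer the other cultivar, only M82 internode replicate 4 and Moneymaker pith replicate 3, each of 48 h, were FR. Those nearer the other time of day were WL. The M82 WL ones include internode replicates 1 and 5 of 6 h and replicate 1 of 24 h. Cultivar by genes is thus partly confounded with light in the M82 comparisons. All 12 were kept, and values without these 12 libraries are given beside most of the main calls. For time of day they are given for some genes only, beside counts of members called. Main calls of members printed without such a value held when the 12 libraries were left out. The 14 measured photosynthetic genes of green outer tissue did not separate pith from whole internodes. Their summed level at 30 and 48 h was 6594 to 13380 scaled reads in Moneymaker pith, against 6162 to 17560 in Moneymaker internodes. It was 5987 to 17990 in M82 pith, against 7450 to 14270 in M82 internodes. None of the 14 was at 0 in any of these libraries.

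All 32 genes passed the filter on low values (a mean of at least 1 scaled read). Their median mean level was 49.4 scaled reads, against 20.0 over the 19029 genes tested. Within a group they varied somewhat less than other genes, with a median SD of 0.45 on the log2 scale, against 0.54 over all genes tested. Since their level was higher and genes of like level were not compared, this is not shown to be a trait of the members. A gene was called where its adjusted p in limma, with Benjamini-Hochberg adjustment over all genes tested, was below 0.05. Fold changes were computed from log2(value + 1), and so understate those of low genes. In these bulk samples fewer cells of a type and less RNA per cell cannot be told apart.

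Far-red light moved a small part of this machinery. A pair of Aux/IAA genes with neighbouring identifiers, Solyc06g008590 and Solyc06g008580, rose in FR in both cultivars and both tissues, by 2.42-fold to 5.48-fold. An ARF, Solyc04g081240, fell in FR in the internodes of both cultivars and in M82 pith. Neither receptor passed the test in any FR comparison, nor did 18 of the 20 ARFs. Averaged over the times, 3 of the 32 genes were called in Moneymaker internodes, where 1.59% of all genes tested were called, and 3 in M82 internodes, against 0.715% of all genes. In pith 2 were called in Moneymaker, against 0.504% of all genes, and 5 in M82, against 3.71%. With the 12 left out the counts were 3, 3, 2 and 3 in the same order, against 1.66%, 0.652%, 0.599% and 1.17% of all genes.

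**Figure D1:**
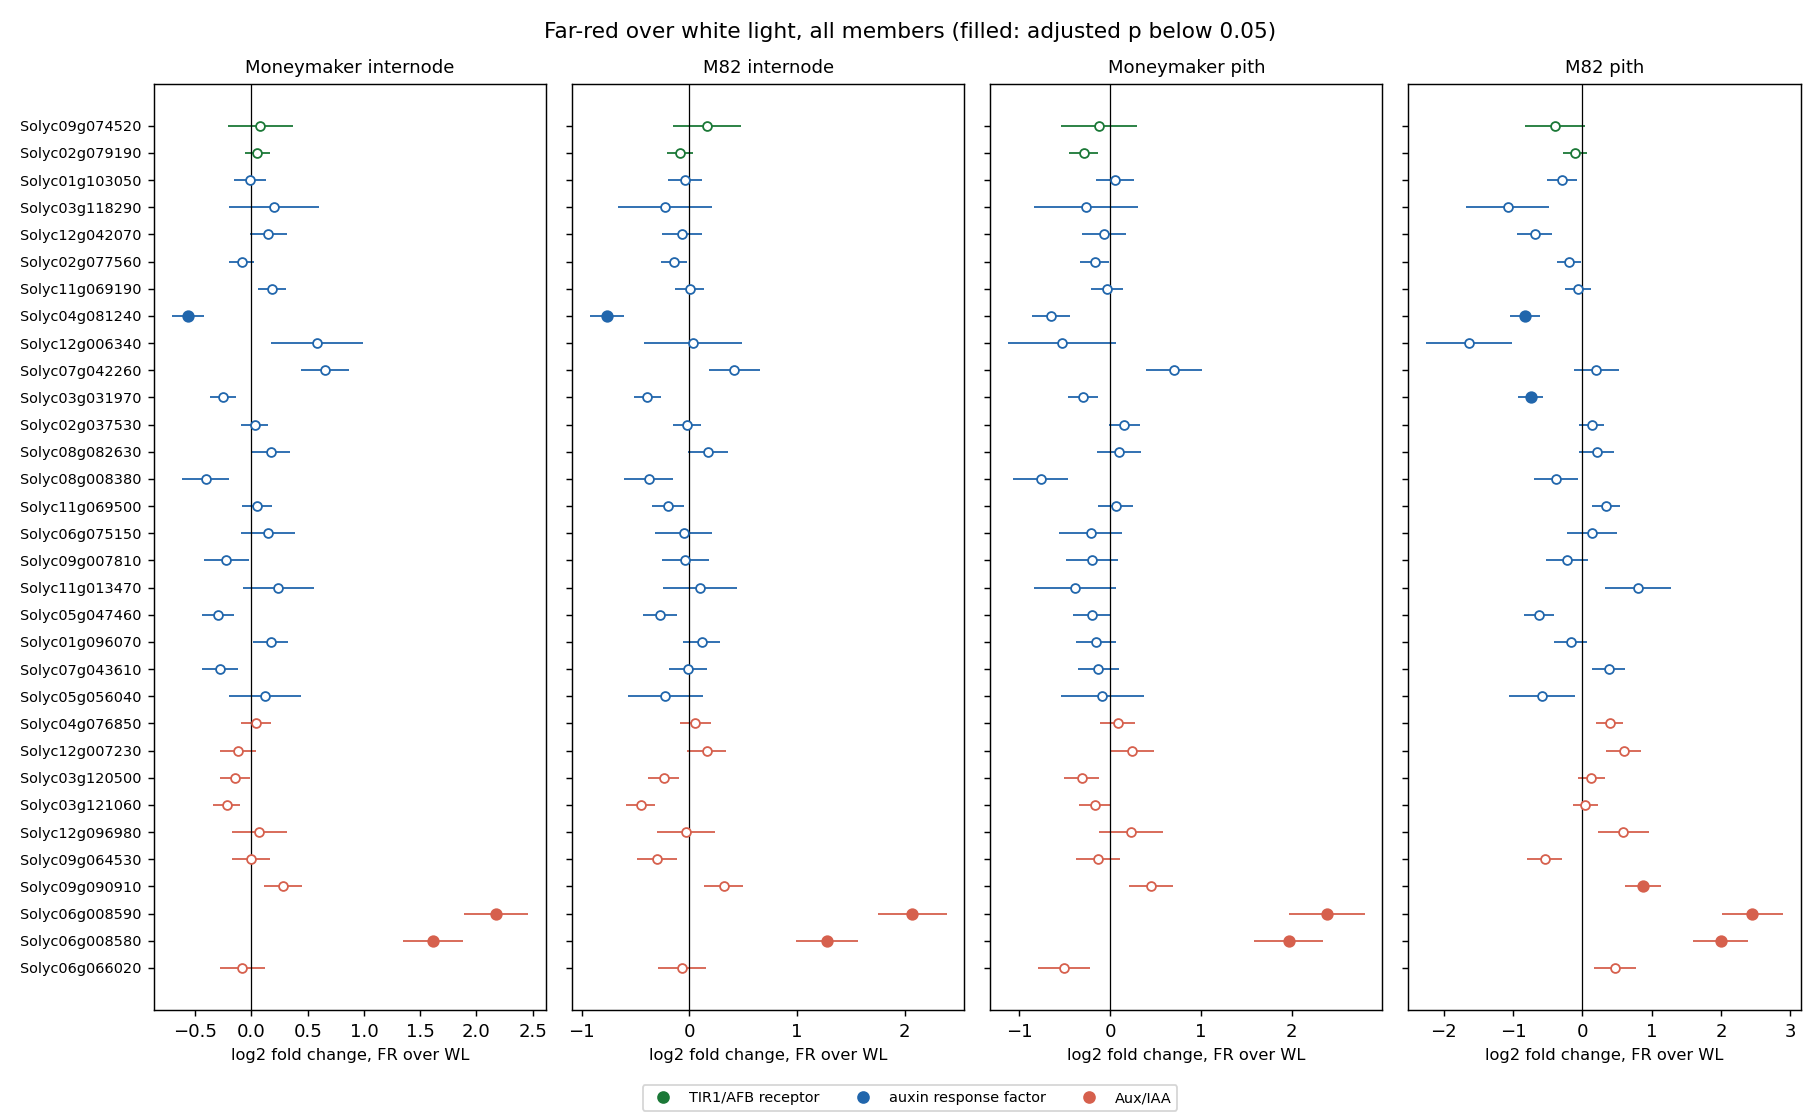
Log2 fold change of FR over WL (x axis, log2(value + 1) scale) for the 2 receptors, 20 ARFs and 10 Aux/IAA genes (rows), with 1 panel for each cultivar and tissue; points are limma estimates averaged over the times, bars are standard errors, and filled points have an adjusted p below 0.05. Solyc06g008590 and Solyc06g008580 stand to the right in all 4 panels, at 1.28 to 2.45, while Solyc04g081240 lies left of 0 in each.

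The receptors showed no response to FR that exceeded their spread. Solyc02g079190 read 59.0 to 116 scaled reads (median 89.6) in Moneymaker FR internodes, against 61.9 to 109 (median 85.97) in WL internodes, a log2 fold change of 0.05 ± 0.11 (SE; limma adjusted p = 0.888). Its FR and WL ranges overlapped in every cultivar and tissue, and its other log2 fold changes were -0.09 ± 0.12 in M82 internodes, -0.29 ± 0.16 in Moneymaker pith and -0.11 ± 0.17 in M82 pith. It was also the member with the narrowest range over the 86 libraries, the highest being 2.93 times the lowest. Solyc09g074520 spread far more, at 4.65 to 65.5 scaled reads (median 43.1) in Moneymaker FR internodes, against 17.8 to 62.4 (median 38.4) in WL internodes. Its log2 fold changes were 0.08 ± 0.29 and 0.16 ± 0.32 in Moneymaker and M82 internodes, and -0.12 ± 0.42 and -0.40 ± 0.44 in Moneymaker and M82 pith. With limma 0 receptors were called in the 4 FR comparisons and 0 had an unadjusted p below 0.05, and edgeR and DESeq2 called 0.

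Among the Aux/IAA genes, whose products hold the ARFs in check, Solyc06g008590 had the largest log2 fold change of FR over WL in each of the 4 comparisons. Moneymaker internodes read 26.5 to 168 scaled reads in FR (median 70.6, n = 19), against 7.64 to 47.5 in WL (median 12.01, n = 13). The WL libraries above the lowest FR one were replicates 3 and 7 of 48 h, at 47.5 and 46.8, and the log2 fold change was 2.17 ± 0.29 (limma adjusted p = 1.68e-07), with 2.12 without the 12 libraries (adjusted p = 2.58e-08). In M82 internodes it read 24.1 to 137 in FR (median 82.5, n = 11), against 1.97 to 74.5 in WL (median 22.2, n = 15), a log2 fold change of 2.07 ± 0.32 (limma adjusted p = 1.18e-05; 2.18 without the 12 libraries, adjusted p = 2.05e-06). The lowest FR library, replicate 3 of 24 h at 24.1, and the highest WL library, replicate 1 of 30 h at 74.5, made the overlap. That WL library was among those nearer Moneymaker by its genes.

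Pith gave the same direction for Solyc06g008590. Moneymaker pith read 13.4 to 156 scaled reads in FR (median 47.6, n = 8), against 3.01 to 31.8 in WL (median 7.14, n = 6), with a log2 fold change of 2.39 ± 0.42 (limma adjusted p = 0.000227; 2.34 without the 12 libraries, adjusted p = 1.49e-05). M82 pith read 31.6 to 218 in FR (median 90.6, n = 5), against 3.53 to 52.9 in WL (median 16.9, n = 9), with a log2 fold change of 2.45 ± 0.44 (limma adjusted p = 0.00028). Within each single cultivar, tissue and time, every FR library lay above every WL library in 10 of the 12 sets, which 0.042% of all genes tested matched or passed. It was 12 of 12 without the 12 libraries, a count for which no share of all genes was computed. Smaller groups overlap less easily, and M82 WL internodes of 24 h then held replicate 2 alone. The M82 pith value was smaller without the 12 libraries, at 1.83 (adjusted p = 0.00511), and its adjusted p was 0.0796 when the 4 M82 pith groups were fitted alone.

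Its neighbour Solyc06g008580 moved with it at smaller size. In Moneymaker internodes the FR libraries held 15.9 to 115 scaled reads (median 51.5), against 6.34 to 31.4 in WL (median 13.5), a log2 fold change of 1.61 ± 0.26 (limma adjusted p = 2.16e-05; 1.71 without the 12 libraries, adjusted p = 4.25e-05). M82 internodes held 12.8 to 93.5 in FR (median 62.9), against 4.34 to 56.2 in WL (median 20.3), a log2 fold change of 1.28 ± 0.29 (limma adjusted p = 0.00949; 1.31 without the 12 libraries, adjusted p = 0.0459). The lowest FR and the highest WL library of M82 were the same as for Solyc06g008590: the FR one of 24 h at 12.8 and the WL one of 30 h at 56.2. Without the other FR library of 24 h, replicate 2, the M82 log2 fold change was 0.96 (limma adjusted p = 0.228), and with the M82 internode groups fitted alone the adjusted p was 0.0616.

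In pith the lights overlapped narrowly or not at all for Solyc06g008580. Moneymaker pith held 19.0 to 85.2 scaled reads in FR (median 29.2), against 4.22 to 19.3 in WL (median 6.00), a log2 fold change of 1.97 ± 0.38 (limma adjusted p = 0.00134; 2.01 without the 12 libraries, adjusted p = 0.00172). M82 pith held 40.1 to 92.7 in FR (median 42.6), against 3.72 to 25.9 in WL (median 16.4), with no overlap and a log2 fold change of 1.99 ± 0.40 (limma adjusted p = 0.00162; 1.82 without the 12 libraries, adjusted p = 0.0158). With the replicate number as a block, the Moneymaker pith value was 1.80 (limma adjusted p = 0.0526), so that 1 of the 32 genes was called there in place of 2. The sources used here do not say how reads shared by similar Aux/IAA copies were counted, and the levels of this pair are uncertain to that extent. All FR libraries lay above all WL libraries in 7 of the 12 sets for Solyc06g008580, which 0.189% of all genes tested matched or passed.

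Of the other 8 Aux/IAA genes, 1 was called. In M82 pith Solyc09g090910 held 51.3 to 78.0 scaled reads in FR (median 54.8, n = 5), against 18.2 to 54.7 in WL (median 33.5, n = 9), a log2 fold change of 0.87 ± 0.25 (limma adjusted p = 0.0382). Without the 12 libraries it was 0.61 (limma adjusted p = 0.28), and with the M82 pith groups alone the adjusted p was 0.115. The call was also lost without any 1 of 8 of the 14 libraries (adjusted p 0.0563 to 0.2): FR replicates 2 and 4 of 48 h and 3 of 30 h, WL replicates 1, 3 and 4 of 30 h, and WL replicates 1 and 6 of 48 h. In the other sets its log2 fold changes were 0.28 ± 0.17 in Moneymaker internodes, 0.32 ± 0.18 in M82 internodes and 0.45 ± 0.24 in Moneymaker pith. Solyc03g121060, called only with other tools or fits, had a negative value in M82 internodes, at 91.2 to 167 scaled reads in FR (median 121), against 112 to 233 in WL (median 171), a log2 fold change of -0.45 ± 0.13 that missed the threshold (limma adjusted p = 0.0973). DESeq2 gave an adjusted p of 0.0324, and the M82 internode groups fitted alone gave 0.0246. The median over all 10 Aux/IAA genes was 0.0179, 0.0113, 0.157 and 0.533 on the log2 scale in Moneymaker internodes, M82 internodes, Moneymaker pith and M82 pith, against 0.00732, -0.0132, -0.0376 and 0.0129 over all genes tested.

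**Figure D2:**
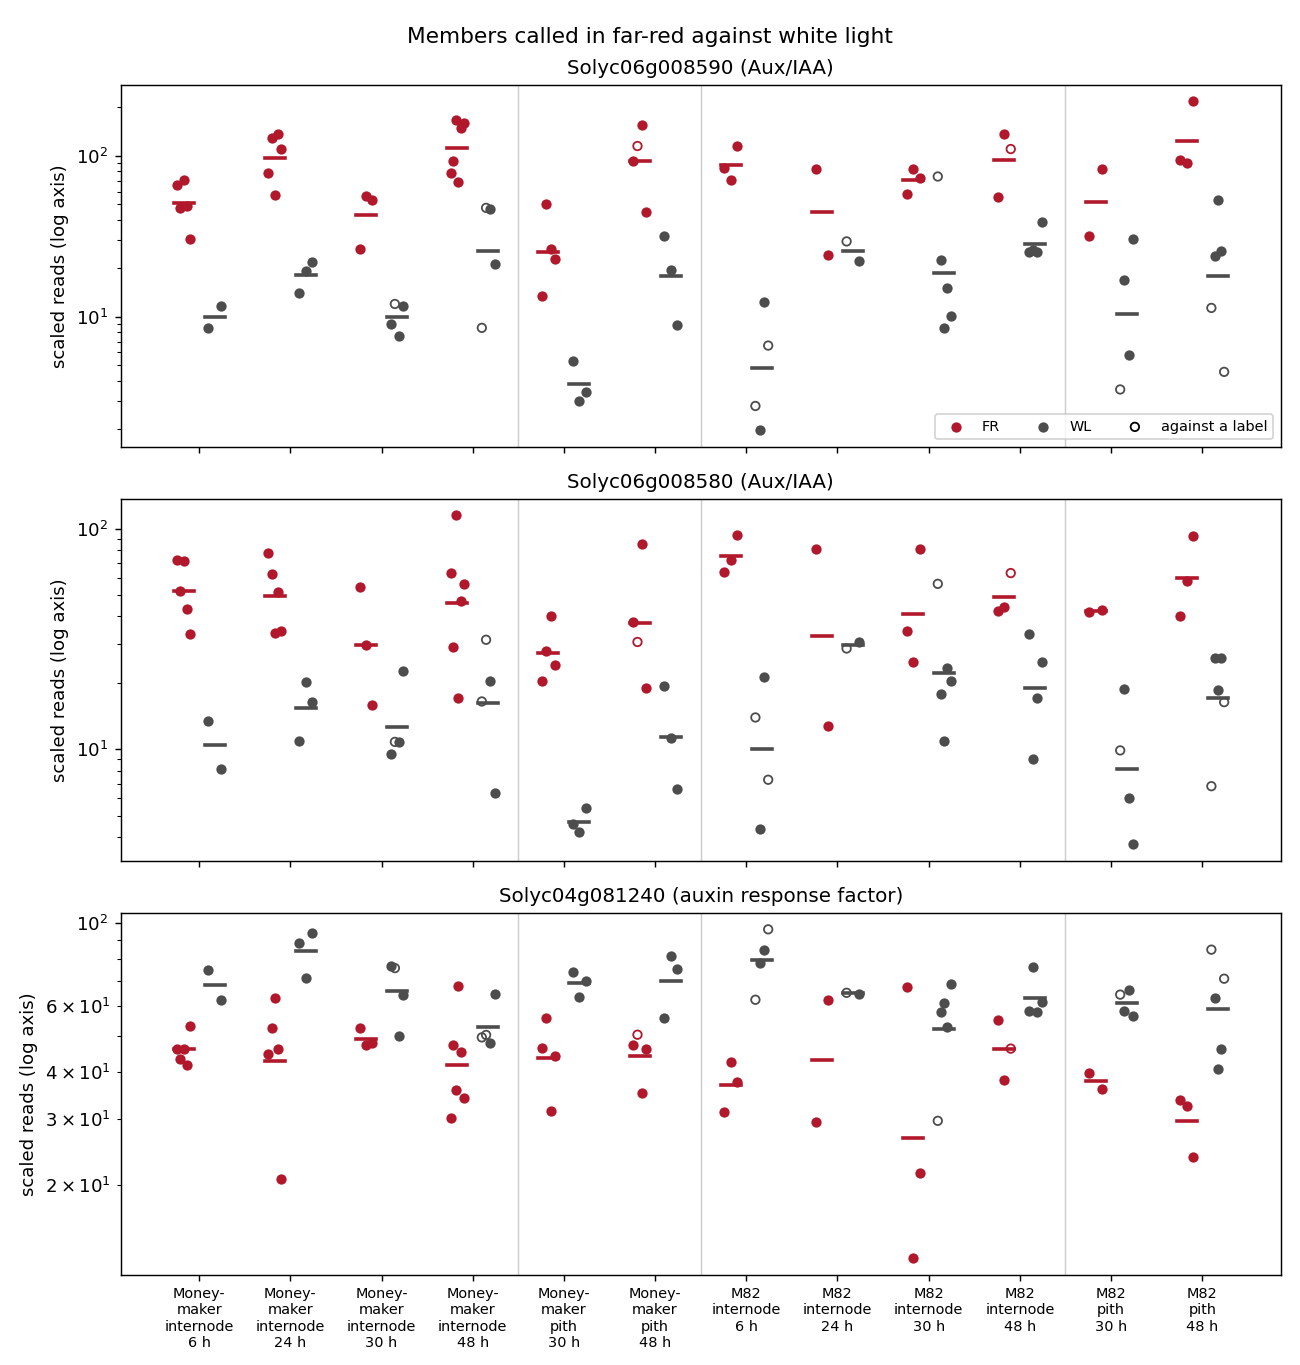
Scaled reads (y axis, log scale) of Solyc06g008590, Solyc06g008580 and Solyc04g081240 in every library, by cultivar, tissue and time (x axis), with FR left of WL; bars are means taken on the log2(value + 1) scale, and open points are the 12 libraries whose genes go against a label. The FR points of Solyc06g008590 lie above the WL points in 10 of 12 sets, and those of Solyc04g081240 lie below them in 9 of 12.

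Of the 20 ARFs, the transcription factors at the end of the pathway, Solyc04g081240 was the one with a repeated FR response. Moneymaker internodes read 20.7 to 67.9 scaled reads in FR (median 46.0, n = 19), against 47.8 to 93.8 in WL (median 64.5, n = 13), and the gene fell by 0.56 ± 0.14 on the log2 scale (limma adjusted p = 0.02; fell by 0.57 without the 12 libraries, adjusted p = 0.0357). M82 internodes read 12.7 to 67.5 in FR (median 38.0, n = 11), against 29.6 to 96.0 in WL (median 62.3, n = 15), and it fell by 0.77 ± 0.16 (limma adjusted p = 0.00219; fell by 0.82 without the 12 libraries, adjusted p = 0.00914). Both sets overlapped, and the lowest WL library of M82 was again replicate 1 of 30 h. Without WL replicate 2 of 6 h the Moneymaker adjusted p was 0.0919, without FR replicate 2 of 24 h the M82 one was 0.0722, and with the M82 internode groups fitted alone it was 0.0616.

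In pith, Solyc04g081240 had no overlap between the lights in either cultivar, though the Moneymaker ranges nearly met. The share of all genes with no overlap was not computed for this or the other pith ranges in the report. M82 pith read 23.7 to 39.7 scaled reads in FR (median 33.7, n = 5), against 40.7 to 84.8 in WL (median 63.1, n = 9), and the gene fell by 0.82 ± 0.22 on the log2 scale (limma adjusted p = 0.0224). Moneymaker pith read 31.4 to 55.7 in FR (median 46.1, n = 8), against 55.8 to 81.7 in WL (median 71.8, n = 6), a log2 fold change of -0.65 ± 0.21 that missed the threshold (limma adjusted p = 0.194). The M82 pith call was lost without the 12 libraries (-0.68, adjusted p = 0.143), with the M82 pith groups alone (adjusted p = 0.0713), without FR replicate 3 of 30 h (0.128) and without FR replicate 4 of 48 h (0.103). Set by set, all FR libraries lay below all WL libraries in 9 of 12, and 0.0946% of all genes tested reached that count with all libraries. The count was also 9 without the 12 libraries, where no share of all genes was computed.

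Solyc03g031970 was the other ARF called under FR. M82 pith held 118 to 247 scaled reads in FR (median 232), against 294 to 503 in WL (median 329), with no overlap, and it fell by 0.75 ± 0.17 on the log2 scale (limma adjusted p = 0.00963; fell by 0.66 without the 12 libraries, adjusted p = 0.0391). Its log2 fold change was -0.25 ± 0.12 in Moneymaker internodes, -0.39 ± 0.13 in M82 internodes and -0.30 ± 0.17 in Moneymaker pith, none of which passed (limma adjusted p = 0.322, 0.186 and 0.689). The M82 pith call was lost without FR replicate 3 of 30 h (adjusted p = 0.0682), without FR replicate 4 of 48 h (0.0893) and with the M82 pith groups alone (0.0813).

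The remaining 18 ARFs had no call with limma in the 4 FR comparisons. In M82 pith DESeq2 called a further one, Solyc05g047460, at 46.8 to 70.8 scaled reads in FR (median 62.1), against 69.9 to 155 in WL (median 81.7). Its log2 fold change was -0.72 with DESeq2 (adjusted p = 0.0359) and -0.63 ± 0.22 with limma (adjusted p = 0.0808). Solyc07g042260 had a positive value in each. Moneymaker internodes held 13.5 to 50.4 scaled reads in FR (median 30.4), against 9.57 to 35.9 in WL (median 21.4), a log2 fold change of 0.65 ± 0.21 (limma adjusted p = 0.109). With the replicate number as a block that value was 0.84 (limma adjusted p = 0.0165), which made it the fourth gene called there. Solyc12g006340 had the most negative value, -1.63 ± 0.62 in M82 pith (limma adjusted p = 0.114), where FR libraries held 3.76 to 20.3 scaled reads and WL libraries 7.30 to 54.5. Over all 20 ARFs the log2 fold changes ran from -0.56 to 0.65 in Moneymaker internodes, from -0.77 to 0.42 in M82 internodes, from -0.77 to 0.71 in Moneymaker pith and from -1.63 to 0.81 in M82 pith. Their medians in the same order were 0.0835, -0.0447, -0.164 and -0.209.

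Time by time, the 12 FR comparisons have 2 to 6 libraries a side and much less reach. Solyc06g008590, Solyc06g008580 and Solyc03g031970 were the 3 genes called in any of them. At 6 h in M82 internodes, Solyc06g008590 read 83.9, 70.8 and 116 scaled reads in FR, against 2.79, 1.97, 12.3 and 6.62 in WL, a log2 fold change of 3.94 ± 0.59 (limma adjusted p = 1.55e-05; 3.83 without the 12 libraries, adjusted p = 7.34e-05). At the same point Solyc06g008580 read 63.6, 71.9 and 93.5 in FR, against 13.9, 4.34, 21.2 and 7.28 in WL, a log2 fold change of 2.79 ± 0.54 (limma adjusted p = 0.00163; 2.81 without the 12 libraries, adjusted p = 0.0428). These were the 2 members called there, where 0.273% of all genes tested were called, and neither lost the call when any 1 library was left out. This was the earliest time sampled, and for each gene it gave the largest log2 fold change of the 12 sets. The sets were not tested against each other. The same 2 genes were called without the 12 libraries, against 0.142% of all genes. Without WL replicate 3 alone, 7 further members were called with limma, while 1392 of all genes were called over the 12 single-time comparisons together. Solyc04g076850 (0.92), Solyc12g007230 (1.17) and Solyc12g096980 (1.65) are Aux/IAA genes, and Solyc07g043610 (1.21), Solyc04g081240 (-1.06), Solyc12g006340 (-2.91) and Solyc03g118290 (-3.20) are ARFs, with adjusted p of 0.0129 to 0.0483. DESeq2 on all libraries called Solyc04g081240 there (-1.13, adjusted p = 0.0209).

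At 30 h in Moneymaker pith the same pair was called, where 0.242% of all genes tested were. Solyc06g008590 read 13.4, 50.4, 26.3 and 22.9 scaled reads in FR, against 5.33, 3.01 and 3.40 in WL, a log2 fold change of 2.45 ± 0.59 (limma adjusted p = 0.0435). Solyc06g008580 read 20.3, 27.9, 40.3 and 24.0 in FR, against 4.57, 4.22 and 5.41 in WL, a log2 fold change of 2.31 ± 0.54 (limma adjusted p = 0.0322). The lights did not overlap for either gene, and the share of all genes with no overlap in this set was not computed. With the replicate block the values were 2.31 for Solyc06g008590 (limma adjusted p = 0.0865) and 2.01 for Solyc06g008580 (0.198), and with edgeR the adjusted p values were 0.103 and 0.0834. Each kept its call without FR replicate 1 and lost it without any of the other 6 libraries, at adjusted p of 0.062 to 0.418. Both were called without the 12 libraries, against 0.405% of all genes.

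At 48 h, M82 pith gave 2 calls, where 1.1% of all genes tested were called. Solyc06g008590 read 94.3, 90.6 and 218 scaled reads in FR, against 11.4, 23.9, 52.9, 25.5 and 4.54 in WL, a log2 fold change of 2.71 ± 0.56 (limma adjusted p = 0.00491). Solyc03g031970 held 118 to 247 in FR (median 188), against 294 to 503 in WL (median 357), and fell by 1.04 ± 0.23 on the log2 scale (limma adjusted p = 0.00704). With the 12 libraries left out these were 1.92 (limma adjusted p = 0.118) and -0.90 (0.0796), so that 0 members were called, against 0.268% of all genes. Without FR replicate 4 they were 2.30 (0.253) and -0.75 (0.489), and with the compared groups alone both had an adjusted p of 0.29. DESeq2 called 5 further members there: Solyc06g008580 (1.69, adjusted p = 0.0269) and the ARFs Solyc04g081240 (-1.09, 0.0139), Solyc05g047460 (-0.95, 0.0317), Solyc12g042070 (-1.11, 0.0367) and Solyc01g096070 (-0.96, 0.0432). Their limma adjusted p ran from 0.0598 to 0.121. DESeq2's share of all genes in this comparison is not given, so the 5 cannot be set against a background. Leaving out 1 library brought limma's value for Solyc06g008580 (without FR replicate 1, WL replicate 2 or WL replicate 5) or for Solyc04g081240 (without WL replicate 4 or 5) past the threshold, at adjusted p of 0.0356 to 0.0482. In Moneymaker internodes at 48 h, where 0.158% of all genes were called, Solyc06g008590 was the 1 member called. It read 78.1, 92.7, 168, 68.9, 148 and 159 in FR, against 8.53, 47.5, 46.8 and 21.1 in WL, a log2 fold change of 2.10 ± 0.50 (limma adjusted p = 0.049). Without the 12 libraries, which include the WL libraries at 8.53 and 47.5, it was 1.80 (limma adjusted p = 0.415) and 0 members were called, against 0.0315% of all genes. The call was lost without any of 7 of the 10 libraries, all but FR replicate 5 and WL replicates 3 and 7 (adjusted p 0.0591 to 0.398), and with edgeR (0.144).

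The remaining 8 single-time comparisons called 0 of the 32 genes with limma. Of all genes tested, 0.0263%, 0.0946% and 0.142% were called in Moneymaker internodes at 6, 24 and 30 h, and 0%, 0.378% and 0.0315% in M82 internodes at 24, 30 and 48 h. In Moneymaker pith at 48 h 0.0736% were called, and in M82 pith at 30 h 0.205%. At an unadjusted p below 0.05 they held, in that order, 2, 5, 2, 1, 5, 4, 3 and 8 of the 32. The smallest p in Moneymaker internodes belonged to Solyc06g008580 at 6 h (2.21 ± 0.59, adjusted p = 0.263; DESeq2 0.0448) and to Solyc06g008590 at 24 h (2.37 ± 0.56, adjusted p = 0.0701; DESeq2 0.00165) and at 30 h (2.01 ± 0.59, adjusted p = 0.235). In pith it belonged to Solyc06g008590 for Moneymaker at 48 h (2.32 ± 0.59, adjusted p = 0.121; DESeq2 0.0172) and to Solyc06g008580 for M82 at 30 h (2.23 ± 0.61, adjusted p = 0.104). edgeR called 0 of the 32 in all 8, and DESeq2 called the 1 member with the smallest p in 3 of them. Their shares of all genes in these comparisons are not given. With the compared groups alone limma called Solyc06g008590 in Moneymaker internodes at 6, 24 and 30 h (adjusted p = 0.0113, 0.000379 and 0.028), Solyc06g008580 there at 6 and 24 h (0.0121 and 0.039), and Solyc06g008590 in M82 internodes at 48 h (0.0263). Single libraries also decided a call. Solyc06g008590 passed in Moneymaker internodes at 24 h without FR replicate 4 (limma adjusted p = 0.0446) and in M82 internodes at 30 h without WL replicate 1 (0.0154). Solyc04g081240 passed in M82 internodes at 30 h without FR replicate 2 (0.000768) or WL replicate 1 (0.0241), and Solyc06g008580 in M82 pith at 30 h without WL replicate 2 (0.037).

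M82 internodes at 24 h gave no clear rise of the pair, with 2 libraries a side, and were not tested against the other sets. Solyc06g008590 read 82.5 and 24.1 scaled reads in the 2 FR libraries, against 29.4 and 22.2 in the 2 WL libraries, and Solyc06g008580 read 80.8 and 12.8, against 28.6 and 30.7. The log2 fold changes were 0.79 ± 0.77 and 0.13 ± 0.71 (limma adjusted p = 1 for both), and the smallest p among members belonged to the Aux/IAA gene Solyc06g066020 (-1.19 ± 0.54, adjusted p = 1). For both genes FR replicate 2 was above the WL values and FR replicate 3 was within or below them. WL replicate 1 of this set was among the libraries nearer Moneymaker by their genes. At 48 h M82 internodes gave Solyc06g008590 1.70 ± 0.59 (adjusted p = 0.673). At 30 h Solyc04g081240 had the smallest p, at -0.94 ± 0.28 (adjusted p = 0.135). Without the 12 libraries the M82 values of 30 h passed for Solyc04g081240 (-1.14, limma adjusted p = 0.0274) and Solyc06g008590 (2.34, adjusted p = 0.00324), where 1.42% of all genes were called. Without them Solyc06g008590 also passed in Moneymaker internodes at 24 h (2.37, adjusted p = 0.00442), where 0.158% of all genes were called. In the other 6 comparisons 0 members passed without them. All genes then called were 0.11% and 0.242% in Moneymaker internodes at 6 and 30 h, 0% and 0.0683% in M82 internodes at 24 and 48 h, 0.105% in Moneymaker pith at 48 h and 0.221% in M82 pith at 30 h.

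Whether far-red acted more on one cultivar or tissue was tested as a difference between FR effects, and no member passed. The 4 tests, of Moneymaker minus M82 in internodes and in pith and of pith minus internode in each cultivar, called 0 of the 32 with limma, edgeR and DESeq2, against 0% of all genes tested in each; at an unadjusted p below 0.05 they held 0, 1, 0 and 3 members, in that order. For Solyc06g008590 the differences were 0.10 ± 0.43, -0.07 ± 0.60, 0.33 ± 0.57 and 0.68 ± 0.60 on the log2 scale, and for Solyc06g008580 they were 0.34 ± 0.39, -0.03 ± 0.55, 0.66 ± 0.52 and 0.90 ± 0.55. Each is smaller than 2 of its standard errors, and with errors of up to 0.60 log2 units these tests do not show that the effects were alike. The smallest p values were those of Solyc03g121060 (0.23 ± 0.18), the Aux/IAA gene Solyc06g066020 (-0.98 ± 0.42), the receptor Solyc02g079190 (-0.32 ± 0.22) and the ARF Solyc12g006340 (-2.06 ± 0.85), in the same order, with limma adjusted p of 0.594 or more.

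Between tissues 1 member was called in each cultivar. Pith of Moneymaker held 103 to 318 scaled reads (median 204, n = 14) of the Aux/IAA gene Solyc03g121060, against 64.8 to 269 (median 141, n = 17) in internodes of the same times. It was higher in pith by 0.53 ± 0.12 on the log2 scale (limma adjusted p = 0.00866; 0.48 without the 12 libraries, adjusted p = 0.0476), and the ranges overlapped widely. It was the 1 member called, with 1.12% of all genes tested, or 0.683% without the 12 libraries. In M82 its pith to internode log2 fold change was 0.35 ± 0.12 (limma adjusted p = 0.144; DESeq2 adjusted p = 0.0325). With the replicate block the Moneymaker value was 0.47 (adjusted p = 0.0956) and 0 members were called, and with the compared groups alone its adjusted p was 0.0537.

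The member called in M82 was an ARF. M82 pith held 78.9 to 182 scaled reads (median 98.5, n = 14) of Solyc02g077560, against 86.8 to 198 (median 145, n = 15) in internodes, and the gene was lower in pith, with a log2 fold change of -0.43 ± 0.12 (limma adjusted p = 0.0204; -0.49 without the 12 libraries, adjusted p = 0.00826). It was the 1 member called, or 3.12% of the members. That is near the background of 2.73% of all genes tested, or 2.7% without the 12 libraries. Its value in Moneymaker was -0.14 ± 0.11 (adjusted p = 0.719), and the tissue difference was not tested between the cultivars. The call was lost without FR pith replicate 3 of 30 h (adjusted p = 0.159), without FR internode replicate 4 of 30 h (0.0676) and with the compared groups alone (0.0707). None of the 14 photosynthetic genes was called by limma between pith and internode in either cultivar, and 1 had an unadjusted p below 0.05 in each. Their values were negative for 13 of 14 in M82 (median -0.199) and for 10 of 14 in Moneymaker (median -0.094), and their part in these results was not tested.

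Between the cultivars no member was called. In internodes 0 of 32 passed with limma, edgeR and DESeq2, where 0.977% of all genes tested were called by limma, and 3 had an unadjusted p below 0.05. The count was again 0 without the 12 libraries, against 2.28% of all genes. The smallest p was that of the Aux/IAA gene Solyc12g007230, at 21.98 to 97.5 scaled reads (median 58.1, n = 32) in Moneymaker, against 37.4 to 115 (median 65.6, n = 26) in M82, a log2 fold change of -0.29 ± 0.12 (limma adjusted p = 0.388). In pith 0 of 32 passed with the same 3 tools, against 0.993% of all genes, and 7 had an unadjusted p below 0.05. Solyc02g077560 came nearest, at 83.1 to 199 (median 126) in Moneymaker, against 78.9 to 182 (median 98.5) in M82, a log2 fold change of 0.34 ± 0.12 (limma adjusted p = 0.17). This comparison depended on the 12 libraries, 10 of which were nearer the other cultivar. Without them 2 members were called in pith, against 1.77% of all genes: Solyc02g077560 at 0.43 (limma adjusted p = 0.0314) and Solyc06g008590 at -0.997 (0.0289).

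Members also differed between times of day. The 24 and 48 h samples share a time of day, as do those of 6 and 30 h, and the contrast between them was averaged over both lights. Hours since the start of treatment differ too, so time of day and age cannot be told apart fully. For pith the contrast was 48 h over 30 h alone, where time of day and hours of treatment cannot be told apart at all. Pith values listed under time of day are of that contrast. The Aux/IAA genes that were called were higher at 24 and 48 h, and the ARFs that were called were lower. Of the 32, 5 were called in Moneymaker internodes, 2 in M82 internodes and 4 in pith (48 h over 30 h, both cultivars), against 9.87%, 9.09% and 11.7% of all genes tested. These shares are near the background. When the 12 libraries were left out 4, 1 and 7 were called, against 11%, 7.45% and 13.2% of all genes. Photosynthetic genes moved as well: of 14, 8 rose and 2 fell in Moneymaker internodes, 5 rose and 1 fell in M82 internodes, and 9 rose in pith, and their part in these results was not tested.

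The ARF Solyc06g075150 was lower at 24 and 48 h in the internodes of both cultivars. Moneymaker internodes held 2.11 to 13.5 scaled reads at 24 and 48 h (median 7.41, n = 18), against 8.16 to 23.6 at 6 and 30 h (median 17.1, n = 14), and the gene fell by 1.12 ± 0.24 on the log2 scale (limma adjusted p = 0.000378). M82 internodes held 2.98 to 9.48 (median 7.38, n = 11), against 4.97 to 32.9 (median 13.8, n = 15), and it fell by 0.89 ± 0.26 (limma adjusted p = 0.0172; fell by 1.02 without the 12 libraries, adjusted p = 0.00957). The M82 call was at 0.0505 to 0.0573 without FR replicate 2 of 6 h, FR replicate 2 of 30 h or FR replicate 3 of 24 h. In pith the log2 fold change was -0.69 ± 0.25 (limma adjusted p = 0.0619). These are low levels, at 2.11 to 32.9 scaled reads over all internodes.

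The Aux/IAA gene Solyc03g121060 was called for time of day in the internodes of both cultivars, and for 48 h over 30 h in pith. Moneymaker internodes held 95.1 to 269 scaled reads at 24 and 48 h (median 169), against 64.8 to 179 at 6 and 30 h (median 121), a log2 fold change of 0.48 ± 0.12 (limma adjusted p = 0.00296). M82 internodes held 138 to 233 (median 171), against 91.2 to 182 (median 133), a log2 fold change of 0.47 ± 0.13 (limma adjusted p = 0.0113; 0.44 without the 12 libraries, adjusted p = 0.0551, and adjusted p = 0.0514 without FR replicate 3 of 24 h). In pith it held 102 to 318 at 48 h (median 241, n = 15), against 103 to 228 at 30 h (median 167, n = 13), a log2 fold change of 0.38 ± 0.13 (limma adjusted p = 0.0324). The pith call was lost with the pith groups alone (adjusted p = 0.11) and without any of 12 of the 28 libraries (0.0512 to 0.083). In M82 these were FR replicates 1 and 3 of 30 h and 2 and 4 of 48 h, and WL replicates 3 and 4 of 30 h and 1 and 2 of 48 h. In Moneymaker they were FR replicate 1 of 30 h and WL replicates 2 of 30 h and 2 and 6 of 48 h.

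Solyc06g008590, the gene most raised by FR, was also higher at 24 and 48 h. Moneymaker internodes held 8.53 to 168 scaled reads at 24 and 48 h (median 73.4), against 7.64 to 70.6 at 6 and 30 h (median 28.5), a log2 fold change of 1.09 ± 0.29 (limma adjusted p = 0.00581). Pith held 4.54 to 218 at 48 h (median 44.8), against 3.01 to 83.3 at 30 h (median 16.9), a log2 fold change of 1.44 ± 0.30 (limma adjusted p = 0.000281). Both lights enter these ranges, which overlapped widely. M82 internodes gave 0.55 ± 0.32 (limma adjusted p = 0.389).

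The ARF Solyc01g096070 fell at 48 h in pith. It held 143 to 465.95 scaled reads at 48 h (median 271), against 270 to 612 at 30 h (median 447), and fell by 0.65 ± 0.16 on the log2 scale (limma adjusted p = 0.0027). Moneymaker internodes held 237 to 506 at 24 and 48 h (median 360), against 298 to 1046 at 6 and 30 h (median 485), and it fell by 0.45 ± 0.16 (limma adjusted p = 0.0484). That call was lost with a pseudocount of 0.25 (adjusted p = 0.0502), with no filter (0.0565), with the compared groups alone (0.0815), without the 12 libraries (0.0655) and without any of 20 of the 32 libraries (0.0519 to 0.165). These were FR replicates 3 and 6 of 6 h, 1, 4 and 5 of 24 h, 1 and 3 of 30 h and 4, 5, 7 and 8 of 48 h, and WL replicates 2 and 5 of 6 h, 1, 2 and 5 of 24 h, 3 and 4 of 30 h and 7 and 8 of 48 h. The ARF Solyc02g077560 fell in Moneymaker internodes, at 89.5 to 189 (median 120), against 122 to 239 (median 152), by 0.37 ± 0.11 (limma adjusted p = 0.0168; 0.125 without WL replicate 5 of 6 h). In pith the ARF Solyc08g082630 held 19.1 to 55.2 at 48 h (median 35.2), against 24.97 to 95.9 at 30 h (median 50.4), and fell by 0.55 ± 0.18 (limma adjusted p = 0.0272). With the replicate block its value was -0.48 (adjusted p = 0.0501), and it was lost without any of 6 of the 28 libraries (0.052 to 0.158): M82 FR replicate 3 of 30 h, M82 FR replicate 4 of 48 h, Moneymaker FR replicate 4 of 48 h, Moneymaker WL replicate 2 of 48 h, and Moneymaker WL replicates 5 and 6 of 30 h.

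**Figure D3:**
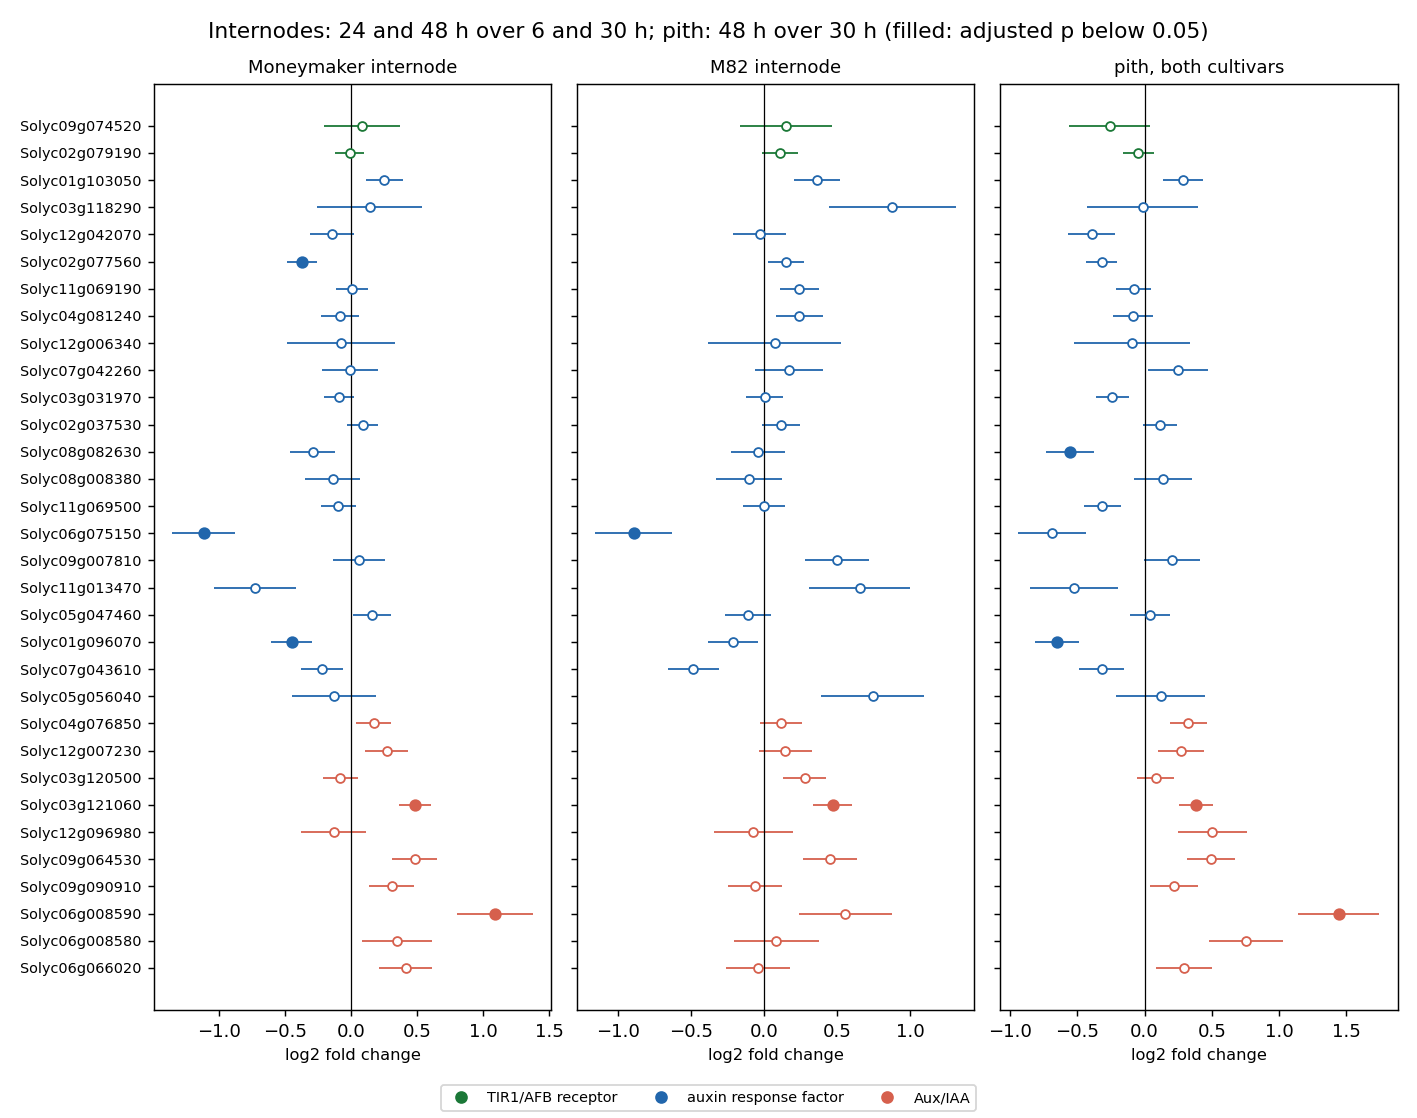
Log2 fold change (x axis) of 24 and 48 h over 6 and 30 h in internodes and of 48 h over 30 h in pith, both lights together, for the 32 genes (rows: receptors, ARFs, Aux/IAA genes); points are limma estimates, bars are standard errors, and filled points have an adjusted p below 0.05. The Aux/IAA genes lie mostly right of 0, all 10 of them in pith, and each filled ARF lies to the left.

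Most Aux/IAA genes had a positive value at 24 and 48 h. In pith all 10 had a positive log2 fold change, with a median of 0.353, against 0.0156 over all genes tested, and 2 of the 10 were called. In Moneymaker internodes 8 of 10 were positive with a median of 0.326, and in M82 internodes 7 of 10 with a median of 0.130. ARF medians were -0.0886, -0.0968 and 0.0927 in pith, Moneymaker internodes and M82 internodes. The receptors ran from -0.26 to 0.15 with none called. The gene Solyc09g064530, another Aux/IAA, came close in Moneymaker internodes, at 0.48 (limma adjusted p = 0.0561), and was called there with the replicate block, at 0.56 (adjusted p = 0.0283).

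**Figure D4:**
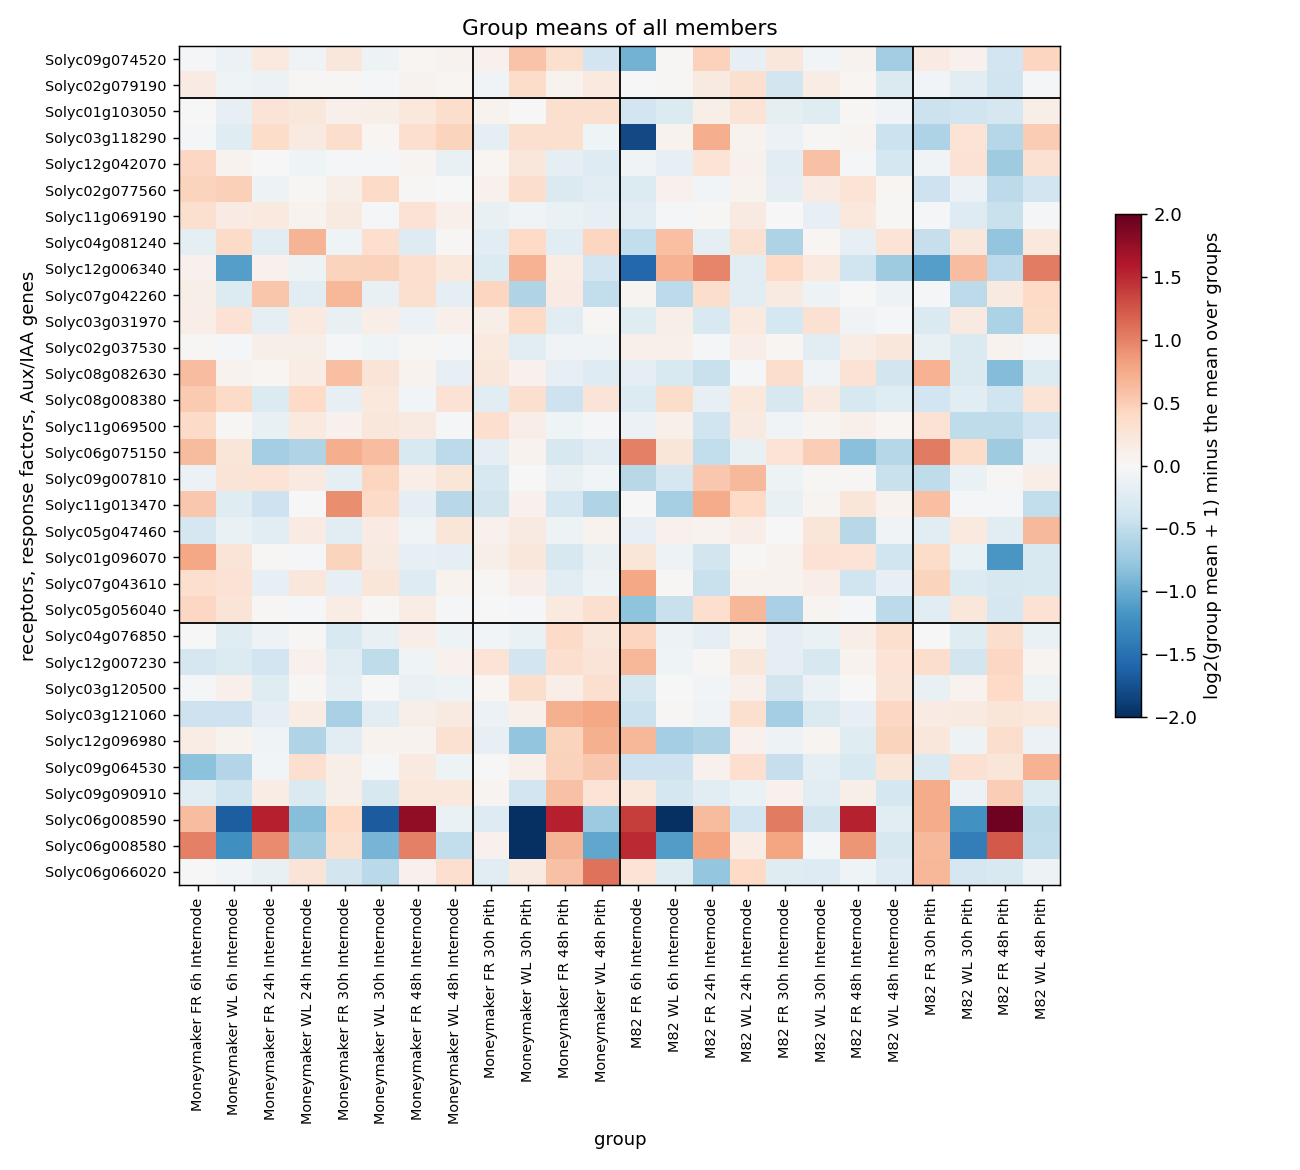
Group means of the 32 genes (rows) in the 24 groups (columns, FR left of WL at each time), coloured by log2(group mean + 1) minus its mean over the groups. The rows of Solyc06g008590 and Solyc06g008580 alternate between higher in FR and lower in WL across the map, and Solyc04g081240 runs the other way.

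Several members varied widely between libraries of the same group. The ARF Solyc03g118290 ran from 0.215 to 144 scaled reads over the 86 libraries (median 58.2), with a within-group SD of 1.07 on the log2 scale. The ARFs Solyc12g006340 (0.852 to 54.5) and Solyc05g056040 (0.717 to 70.9) and the receptor Solyc09g074520 (4.65 to 90.3) had within-group SDs of 1.12, 0.86 and 0.79. These 4 genes were picked after their values were seen, among members of wide spread, and none was called in any comparison with all libraries. They are not the 4 of widest spread: the ARF Solyc11g013470 (SD 0.849) and Solyc06g008590 (0.787) lay above Solyc09g074520 (0.785). Without M82 WL internode replicate 3 of 6 h, Solyc03g118290 (-3.20, limma adjusted p = 0.0129) and Solyc12g006340 (-2.91, 0.0305) were called for FR at 6 h in M82 internodes, where with all libraries they were at -2.07 ± 0.81 (0.296) and -1.97 ± 0.84 (0.334). That fit called 1392 of all genes over the 12 single-time comparisons together. Low libraries of the 4 genes overlapped: of the 10 lowest libraries of each gene, pairs of these genes shared 4 to 8, while the median over all 496 pairs of members was 1 and the highest was 8. Because the genes were picked with these values seen, this overlap is a description and not a test. The 4 libraries low for all 4 genes were M82 FR internode replicate 5 of 6 h, M82 WL internode replicate 3 of 6 h, M82 WL internode replicate 4 of 48 h and Moneymaker FR internode replicate 4 of 6 h. They held 15.3, 12.85, 4.07 and 2.58 recovered reads in units of 1e6, and Solyc03g118290 read 0.215, 2.33, 7.66 and 14.4 scaled reads in them. None of these libraries was among the 12 that go against a label. What the 4 libraries share was not tested.

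**Figure D5:**
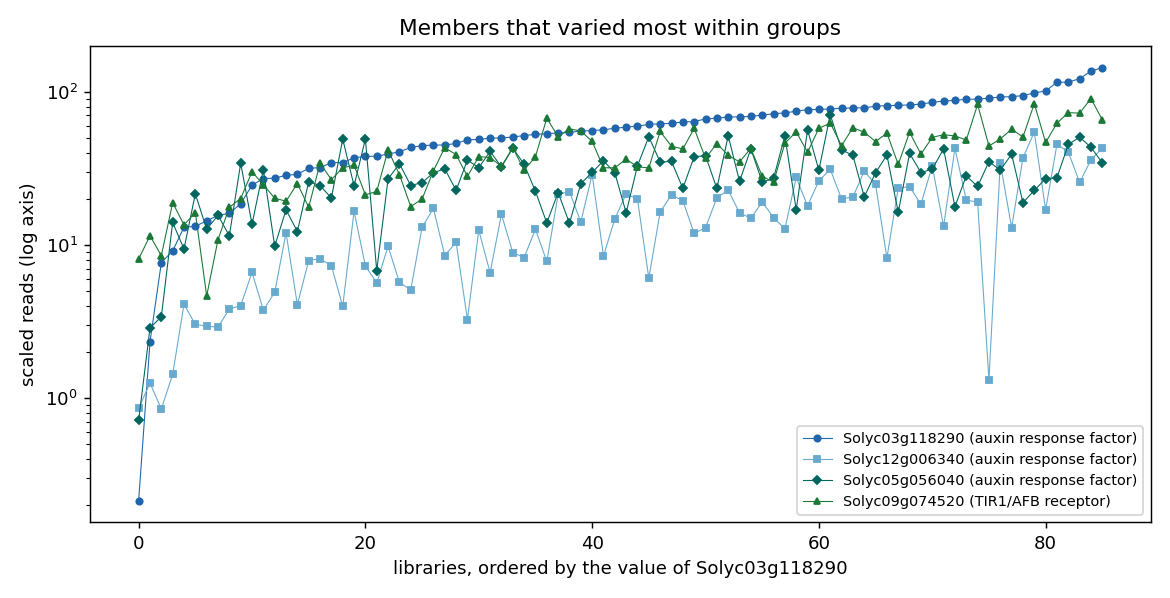
Scaled reads (y axis, log scale) of the ARFs Solyc03g118290, Solyc12g006340 and Solyc05g056040 and the receptor Solyc09g074520 in the 86 libraries (x axis), ordered by the first of them. The 4 lines drop together at the left, where Solyc03g118290 reaches 0.215; levels of different genes are not comparable, since values are not per length.

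Some genes next to these in the pathway also responded. In Moneymaker internodes, M82 internodes, Moneymaker pith and M82 pith, 1.59%, 0.715%, 0.504% and 3.71% of all genes tested were called for FR. The medians over all genes tested were 0.00732, -0.0132, -0.0376 and 0.0129. The same shares stand beside the carriers and GH3 genes below. Of 10 measured Aux/IAA genes that are not members, 1 rose in FR in Moneymaker internodes, 1 in M82 internodes, 0 in Moneymaker pith and 3 in M82 pith, with medians of 0.259, 0.56, 0.181 and 0.711 on the log2 scale and no falls. The counts were 1, 1, 0 and 0 without the 12 libraries, and the medians 0.412, 0.525, 0.175 and 0.488. Solyc06g053830 rose in Moneymaker internodes by 0.95 ± 0.24 (limma adjusted p = 0.0171), and Solyc08g021820 rose in M82 internodes by 1.43 ± 0.32 (0.00606) and in M82 pith by 1.49 ± 0.44 (0.0387). In M82 pith Solyc06g053840 rose by 0.93 ± 0.22 (0.0116). Both M82 pith calls were lost without the 12 libraries, at 1.20 (limma adjusted p = 0.188) for Solyc08g021820 and 0.64 (0.14) for Solyc06g053840, while the internode calls held at 0.77 (0.0459) for Solyc06g053830 in Moneymaker and 1.62 (0.00754) for Solyc08g021820 in M82. Of 12 PIN and LAX carriers, which move auxin between cells, 1 rose in each of the 4 comparisons, and it was the same gene: Solyc04g007690 rose by 1.00 ± 0.19 in Moneymaker internodes (limma adjusted p = 0.000416), 1.00 ± 0.21 in M82 internodes (0.00287), 1.13 ± 0.28 in Moneymaker pith (0.0291) and 1.15 ± 0.29 in M82 pith (0.0175), and all 4 calls held without the 12 libraries (0.98 to 1.43). Of 3 measured GH3 enzymes, which conjugate auxin to amino acids, Solyc01g095580 fell by 0.62 ± 0.16 in Moneymaker internodes (limma adjusted p = 0.0254), a call lost without the 12 libraries (-0.53, adjusted p = 0.0904). In the other 3 comparisons limma called 0 GH3 genes, and 1 had an unadjusted p below 0.05 in each.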

How the data were processed

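Poly(A) RNA of 86 libraries was sequenced. Per the submitters' processing notes FastQC, Trim Galore, STAR and featureCounts were used; versions, genome build and strand setting were not stated. The deposited values are a signal unit, read counts the authors divided by 1 factor per library (sums 834614 to 1334740); below 2000 reads, 100% of values were whole reads within 0.02, so reads could be recovered. Log2(value + 1) of the 19029 genes with a mean of at least 1 was fitted with limma 3.58.1 (trend, robust; R 4.3.3), 1 mean per group, Benjamini-Hochberg adjustment and a threshold of 0.05. The recovered reads entered edgeR 4.0.16 (quasi-likelihood) and DESeq2 1.42.0 as alternatives; edgeR called 328, 156, 96 and 538 genes for FR in Moneymaker internodes, M82 internodes, Moneymaker pith and M82 pith. The test was checked on simulated data. All 19 white-light Moneymaker samples carry FR in 1 label field; titles and sample codes were used. Replicate numbers, taken from titles, mark plants of a shared batch per the series design; for 4 Moneymaker internode libraries of 48 h (replicates 7 and 8) the sample code has another digit (5 and 6), so their batch is uncertain. Per the labels' pairing, deviations of same-numbered libraries correlated at a mean r of 0.0499 (26 pairs), against -0.00859 for others (125 pairs). Within groups no pair of libraries agreed within sampling noise, and pairs across groups were not compared. The closest pair was Moneymaker FR internode replicates 7 and 8 of 48 h. Their reads had a chi-square per degree of freedom of 2.004, and the next pair 3.755. Members, pathway lists (identifiers from general knowledge of the tomato annotation, not checked against one) and tests were chosen with earlier results of these data known. Members were named in full where called, otherwise the one with the smallest p.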

Additional observations from a re-analysis of the deposited data

Results flagged for a closer look

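Among the 5 genes called under far-red, 60 sets of 1 gene in 1 group of 4 to 6 libraries were examined for a library far from the others, and 5 were found; chance alone marks about 1 set in 20. Solyc06g008590 read 38.9 scaled reads in M82 WL internode replicate 4 of 48 h, above the other 3 at 25.2 to 26.2, and this library was also one of the 4 with low values of the variable ARFs. Solyc06g008580 read 22.7 in Moneymaker WL internode replicate 5 of 30 h, above the others at 9.52 to 10.8. Solyc04g081240 read 64.5 in Moneymaker WL internode replicate 8 of 48 h, above the others at 47.8 to 50.2. Solyc03g031970 read 195.0 in Moneymaker FR pith replicate 3 of 30 h, below the others at 336 to 371, and 199 in Moneymaker FR internode replicate 4 of 48 h, below the other 5 at 262 to 302. None of the 5 libraries was among the 12 that go against a label.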

How the results depend on the processing

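Of 974 recomputed values of 33 named member results, 861 stayed on the same side of the threshold, 113 lost it and 0 changed sign. Counts of members called that moved by over 1.5 times are given here, and the cause was not tested. With the compared groups fitted alone, 1 member was called for FR in M82 pith (5 in the full fit; 74 against 706 of all genes), and 0 for pith over internode in Moneymaker and in M82 (1 each). With the replicate block, 1 was called for FR in Moneymaker pith (2) and 0 for pith over internode in Moneymaker (1; 86 against 214 of all genes); beside the changes named in the report, the block changed no other call of a named member. DESeq2 called 7 members at single times (3; 1046 against 348 of all genes), 2 for pith over internode in M82 (1) and 7 for 48 h over 30 h in pith (4). Without the 12 libraries, 3 were called for FR in M82 pith (222 of all genes), 2 for Moneymaker over M82 in pith, 1 for time of day in M82 internodes (2) and 7 in pith (4). Over all genes, DESeq2 called 475 for FR in Moneymaker internodes (302 in limma), 231 in M82 internodes (136) and 412 for tissue in Moneymaker (214). The compared groups alone called 108 at single times (348), 114 for tissue in Moneymaker (214) and 79 for Moneymaker over M82 in pith (189). Without the 12 libraries 130 were called for tissue in Moneymaker (214), 434 for Moneymaker over M82 in internodes (186) and 337 in pith (189). Leaving out each library in turn gave 2 to 3 members for FR in Moneymaker internodes, 1 to 3 in M82 internodes, 2 to 2 in Moneymaker pith, 2 to 5 in M82 pith, 2 to 10 at single times (10 without M82 WL internode replicate 3 of 6 h), 1 to 1 and 0 to 1 for tissue in Moneymaker and M82, and 3 to 6, 0 to 4 and 2 to 8 for time of day in Moneymaker internodes, M82 internodes and pith. The number of all genes called shifted in these fits too (full fit in brackets). Without M82 FR pith replicate 4 of 48 h, 117 were called for FR in M82 pith (706). At single times 1392 were called without M82 WL internode replicate 3 of 6 h (348). The fits with 4 members for time of day in M82 internodes called 1636 and 1700 (1729), and that with 8 members in pith called 2549 (2231). TMM scaling moved the median of all genes by at most 0.0204 log2 units. Small groups, 2 to 6 libraries, limit the single times most.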

Other observations

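The Aux/IAA genes outside the studied set were examined in the same contrasts. In pith 10 of 10 measured genes had a positive log2 fold change of 48 h over 30 h, with a median of 0.572, and 4 of them rose, Solyc09g083280 by 0.95 ± 0.19 (limma adjusted p = 0.000193) and Solyc09g083290 by 0.81 ± 0.20 (0.00182) among them, where 11.7% of all genes tested were called. Moneymaker internodes gave 9 of 10 positive values for 24 and 48 h over 6 and 30 h, with a median of 0.391 and 2 calls, Solyc09g083280 at 0.94 ± 0.19 (limma adjusted p = 0.000107) and Solyc03g120380 at 1.25 ± 0.32 (0.00372), where 9.87% of all genes were called. M82 internodes gave 7 of 10 with a median of 0.0461 and 0 calls with limma, against 9.09% of all genes, 2 of the 10 having an unadjusted p below 0.05. The PIN or LAX carrier Solyc05g008060 rose by 0.86 ± 0.21 (limma adjusted p = 0.00268) in Moneymaker internodes in the same contrast. In M82 pith over internodes 1 of these Aux/IAA genes (Solyc06g053840, -0.52 ± 0.15, limma adjusted p = 0.0415) and 1 GH3 gene (Solyc01g107390, -1.20 ± 0.28, 0.00473) were lower, against 2.73% of all genes tested called. The first of these was at -0.36 without the 12 libraries (adjusted p = 0.262) and the GH3 gene at -1.16 (0.0122), and the counts of Aux/IAA genes called in time of day were 4 in pith, 3 in Moneymaker internodes and 0 in M82 internodes.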
